A study of Mus musculus with 12 samples.

Results

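The 10 genes described here were chosen because their signal in naive mouse CD8+ T cells sorted by surface Sca-1 differed between the fractions with 1 sign in both genotypes studied. Cd163l1, Chst11, Snrpn, Tmem37 and Prss12 had the higher signal in the Sca1p fraction, and Plxdc2, Pdgfb, Plxnd1, Gucy1b1 and Maged1 the lower. For Gucy1b1 none of the naive arrays was well above background, and for Maged1 1 was, so their signs rest on dim signal. The 10 genes stand among the 25738 features measured, of which 13882 are named genes. The genes were chosen from the naive arrays themselves, by their Sca1p against Sca1m differences, so that contrast is a description here and carries no test. All 10 were found on the array and passed the filter, which needed a probe to exceed background clearly on 2 or more of the 12 arrays.

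RNA from CD8+ T cells of female C57BL/6 mice was hybridised to 12 Agilent arrays with Cy3 label, 1 sample to an array. The naive cells, sorted for low CD44 from peripheral lymph nodes (PLN), gave 1 array each of Sca1p AID KO, Sca1p uMT, Sca1m AID KO and Sca1m uMT. Total CD8+ T cells gave 1 array each of AID KO and uMT from the gut-draining mesenteric nodes (MLN), 2 of WT MLN, 1 each of AID KO and uMT from PLN, and 2 of WT PLN. The fraction names Sca1p and Sca1m are taken to mean with and without surface Sca-1, since the protocol sorts for it, and no WT naive array was analysed here. The uMT mice carry a disrupted membrane exon of the mu chain and have no mature B cells. The submitters state that there were no replicates, and neither ages nor the number of animals behind an array are given. P-values below therefore set a fitted difference against the spread of these arrays about an additive fit, and that spread may be technical.

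Sca-1, encoded by Ly6a, is a small membrane protein held by a lipid anchor. On mouse T cells it is induced by interferons and marks activated and memory cells, and some naive CD8+ cells carry it as well. The 10 genes belong to no single pathway: they encode a secreted growth factor, surface receptors and other membrane proteins, enzymes, an RNA-binding protein and a signalling adaptor.

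Signal is given throughout as the log2 level, the processed intensity of a probe relative to the 75th percentile of its array, and is compared only within a probe. The scanner software called 50.1% to 56.8% of an array's spots well above background. CD8 T cell identity genes were well above background for 9 of 9 genes on every array. Ly6a had a log2 level of 3.87 in Sca1p AID KO and 3.40 in Sca1p uMT cells, against 0.03 in Sca1m AID KO and -0.10 in Sca1m uMT cells, so the arrays followed the sort. Genotypes are read from the labels, and an AID KO difference below is that of the arrays so labelled. The sample titles write AID for AID KO. On the total-cell arrays they write MMT where uMT stands here, and MMT was read as uMT. The arrays lay on 3 slides of 4, each with its own scan, and all naive arrays shared a slide with no total-cell array.

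Pdgfb encodes the B chain of platelet-derived growth factor, a secreted ligand for receptors on stromal and vascular cells. Its log2 level was -3.86 in Sca1p AID KO and -3.66 in Sca1p uMT cells, against -2.40 in Sca1m AID KO and -2.32 in Sca1m uMT cells. Both Sca1p arrays lay below both Sca1m arrays, with a mean difference of -1.40, or 2.64-fold lower signal, and all 4 arrays were well above background. Of the 6 other genes listed as PDGF ligands and receptors, 0 passed the filter, so no receptor for this ligand is reported.

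Plxnd1 encodes plexin D1, a receptor for class 3 semaphorins that guides migrating thymocytes and vessels. It stood at -4.36 in Sca1p AID KO and -4.40 in Sca1p uMT cells, against -3.31 in Sca1m AID KO and -3.27 in Sca1m uMT cells. The fractions did not overlap, at a mean difference of -1.09, although only 1 of the 2 Sca1p arrays was well above background. A second Plxnd1 probe ran the opposite way, by 0.47 in AID KO and 1.15 in uMT, and was well above background on 1 naive array, so the direction for this gene rests on the brighter probe.

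Plxdc2 encodes a transmembrane protein with a plexin-like domain. Its log2 level was -3.70 in Sca1p AID KO and -3.33 in Sca1p uMT cells, against -2.15 in Sca1m AID KO and -1.89 in Sca1m uMT cells. Signal was thus lower in Sca1p by -1.55 in AID KO and by -1.45 in uMT, a mean of 2.82-fold, and well above background on all 4 arrays.

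Cd163l1 encodes a scavenger receptor cysteine-rich protein, known in mice chiefly from gamma delta T cells. It stood at -3.87 in Sca1p AID KO and -4.37 in Sca1p uMT cells, against -6.67 in Sca1m AID KO and -6.99 in Sca1m uMT cells. Neither Sca1m array was well above background, so the measured mean difference of 2.72 cannot be read as a size. The Sca1p mean was 1.45-fold above the lowest signal that counted as well above background on each Sca1m array. Such a value is no strict lower limit, since a probe that is not well above background can lie above that lowest signal. Plxnd1 did so on the Sca1p AID KO array, at -4.36, against a lowest signal of -4.57.

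Tmem37 encodes a membrane protein related to the gamma subunits of voltage-gated calcium channels. Its log2 level was -1.99 in Sca1p AID KO and -1.93 in Sca1p uMT cells, against -3.36 in Sca1m AID KO and -3.00 in Sca1m uMT cells. The difference was 1.37 in AID KO and 1.07 in uMT, a mean of 2.33-fold, and every naive array was well above background.

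Gucy1b1 encodes the beta subunit of soluble guanylate cyclase, the intracellular receptor for nitric oxide, which works as a dimer with an alpha subunit. It read -6.81 in Sca1p AID KO and -6.87 in Sca1p uMT cells, against -5.28 in Sca1m AID KO and -5.06 in Sca1m uMT cells, and 0 of the 4 naive arrays were well above background. The order of these values is therefore an order within background, and no fold is given. Gucy1a1, its alpha partner, differed by -1.04 in AID KO and -0.52 in uMT and was well above background on 2 naive arrays.

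Chst11 encodes a Golgi enzyme that adds sulfate to chondroitin chains. Its log2 level was -3.82 in Sca1p AID KO and -3.88 in Sca1p uMT cells, against -5.93 in Sca1m AID KO and -6.52 in Sca1m uMT cells. As with Cd163l1, neither Sca1m array was well above background. The Sca1p mean was 1.74-fold above the lowest signal well above background on those arrays, with the same limit. A second Chst11 probe differed the same way, by 0.43 and 0.82, and was well above background on 0 naive arrays.

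Prss12 encodes neurotrypsin, a secreted serine protease that cleaves agrin. Its probe lay above the 75th percentile on every naive array, at 1.46 in Sca1p AID KO and 1.72 in Sca1p uMT cells, against 0.58 in Sca1m AID KO and 0.64 in Sca1m uMT cells. All 4 arrays were well above background, and the difference, 0.88 in AID KO and 1.09 in uMT, came to a mean of 1.98-fold.

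Snrpn encodes a small nuclear ribonucleoprotein and is expressed from the paternal allele. It stood at -2.62 in Sca1p AID KO and -2.74 in Sca1p uMT cells, against -4.52 in Sca1m AID KO and -4.18 in Sca1m uMT cells. The mean difference was 1.67, or 3.19-fold, with all 4 arrays well above background. A pair of dimmer Snrpn probes gave the same sign in both genotypes, by 1.37 and 0.68 for one and by 0.46 and 1.64 for the other, with at most 1 naive array well above background.

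Maged1 encodes a MAGE-family adaptor of neurotrophin receptor signalling. Its log2 level was -5.87 in Sca1p AID KO and -5.03 in Sca1p uMT cells, against -4.63 in Sca1m AID KO and -3.94 in Sca1m uMT cells. Only the Sca1m uMT array was well above background. In AID KO the order of the fractions is therefore an order within background, and no fold is given.

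**Figure D1:**
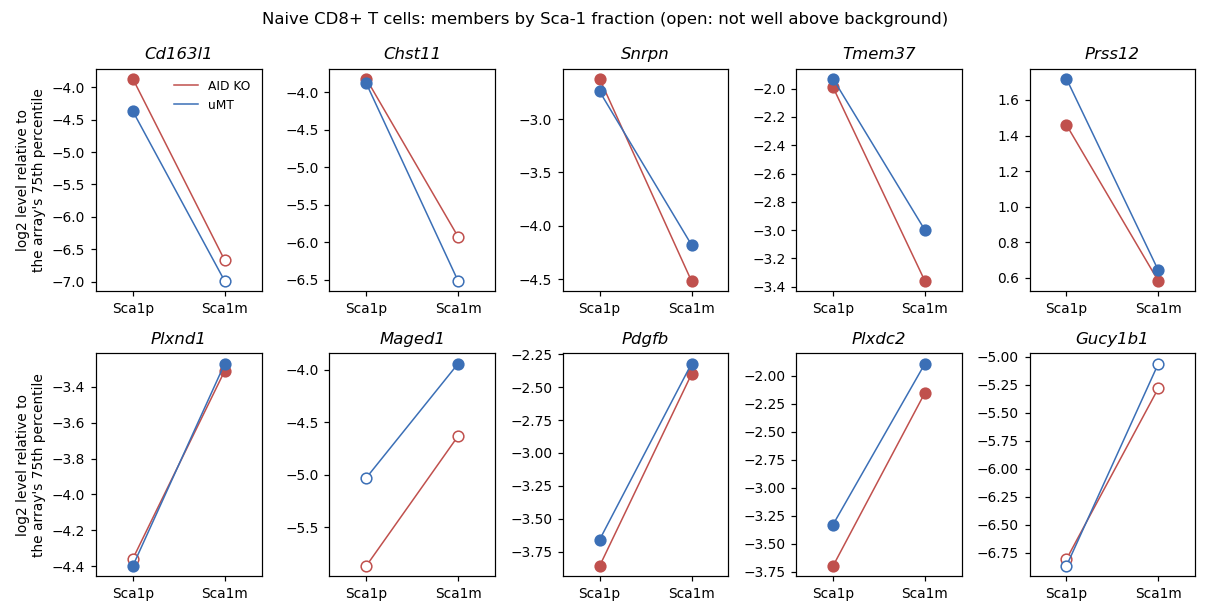
Each panel shows 1 gene in naive CD8+ T cells, with the log2 level relative to the array's 75th percentile on the y axis and the Sca1p and Sca1m fractions on the x axis. Points are single arrays, lines join the fractions of a genotype, and open points were not well above background, as all 4 Gucy1b1 points were.

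Across the 10 genes, 10 of 10 had the same sign in both genotypes and 9 of 10 reached 1 log2 in both, as the choice of genes would give and with the dim Gucy1b1 and Maged1 counted, while 182 of the 25596 features with both differences did so, or 0.711%. Of these 182 features, 127 were higher and 55 lower in Sca1p. The differences of AID KO and uMT lay apart by a median of 0.19 for the 10 genes and 0.26 for all features. The smaller value also follows from the choice of genes. Over all features the differences in AID KO and in uMT had a correlation of -0.00614.

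**Figure D2:**
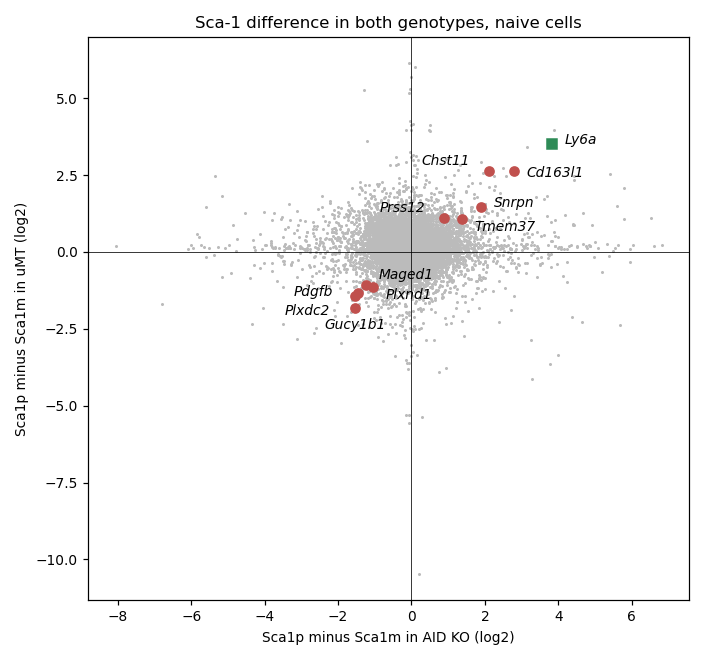
Each grey point is 1 feature, with its log2 difference Sca1p minus Sca1m in AID KO on the x axis and in uMT on the y axis. The 10 genes (red) and Ly6a (green square, at 3.83 and 3.50) lie near the diagonal, and many grey points have a large difference on 1 axis only.

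Promoter sequence was available from RefSeq (GRCm38.p6) for 8 of the 10 genes, not for Pdgfb and Plxdc2. Base composition of the 250 bases before the start ranged from 36.8% GC in a Snrpn window to 70% in Chst11, with a median of 52.4% over all windows. Searched on both strands for 4 motifs whose matches may overlap, the windows of the 10 genes held 1 match, the RUNX element TGTGGT in Prss12, an element present in 14% of all 32851 windows. Matches were found in 0 of the 11 windows of these genes for the GAS element of STAT factors (TTCNNNGAA, in 7.02% of all windows), the interferon-stimulated response element (in 2.98%) and the TCF and LEF element (CTTTGAT, in 3.21%). The Prss12 window (chr3:123446663-123446912, plus strand) is shown with that match in capitals, beside the Maged1 window (chrX:94542026-94542275, minus strand), which held no match to any of the motifs. Such letters do not show that a factor binds there.
Prss12: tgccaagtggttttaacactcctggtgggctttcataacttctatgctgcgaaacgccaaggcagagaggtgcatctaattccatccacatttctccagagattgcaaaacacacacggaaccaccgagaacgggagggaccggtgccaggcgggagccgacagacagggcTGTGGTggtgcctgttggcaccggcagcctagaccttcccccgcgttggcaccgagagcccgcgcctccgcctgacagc
Maged1: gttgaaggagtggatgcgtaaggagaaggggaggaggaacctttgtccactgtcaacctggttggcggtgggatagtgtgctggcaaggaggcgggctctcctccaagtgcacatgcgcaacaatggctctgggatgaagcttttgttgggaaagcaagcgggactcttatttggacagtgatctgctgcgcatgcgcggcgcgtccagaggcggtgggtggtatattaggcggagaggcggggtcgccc

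The families around these genes were described from lists that leave the 10 genes out. Among semaphorins, plexins and neuropilins, 20 of 30 were measured, 0 passed the test between Sca1p and Sca1m, 10 lay above 0, and the list's median was 0.00 against 0.00 over all features. Plxnb3 differed by 0.88 in AID KO and 0.75 in uMT, and Plxnb1 by -0.70 and -0.69, so plexin family members did not share a direction. Chondroitin sulfate synthesis (15 of 20 measured, median -0.05), nitric oxide and cyclic GMP (8 of 15, median 0.00), imprinted genes (7 of 20, median 0.07), the MAGE family (4 of 7, median -0.15) and the scavenger receptor cysteine-rich family (6 of 10, median 0.39) each had 0 genes past the test. Within these lists Ust, a chondroitin sulfotransferase, differed by 0.43 and 0.63, Meg3, an imprinted noncoding RNA, by 0.85 and 1.45, and Dmbt1, a scavenger receptor cysteine-rich protein, by 1.81 and 0.28, in AID KO and uMT. Meg3 was well above background on only 2 naive arrays, so its differences are not read as sizes.

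Over all features 4, or 0.0155%, were below an adjusted p of 0.05 for Sca1p against Sca1m in the fit over all arrays (limma, Benjamini-Hochberg), and 0 were when any single total-cell array was left out. Lists of CD8 T cell states gave 1 gene past that test. This was Cxcr3, a chemokine receptor of effector and memory T cells, higher in Sca1p by 2.13 ± 0.11 (SE; limma, adjusted p = 0.0205), from 1 of 22 genes called on the virtual memory and effector list. Ly6c1, on the same list, differed by 1.65 and 1.47 at an adjusted p of 0.091. Of 28 measured type I interferon response genes 26 lay above 0, with a median of 0.27 and 0 past the test. Cd24a and Sox4, on the list of thymocytes and recent thymic emigrants, differed by -0.84 and -0.97 in AID KO and by -1.41 and -1.24 in uMT, also with 0 past the test.

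Markers of other cell types were set beside the 10 genes because sorted fractions can hold other cells. In bulk RNA, fewer cells of a type and less RNA per cell cannot be told apart. The summed level of NK cell markers (5 of 7 measured) was 1.95 and 1.96 in the Sca1p arrays, against 1.13 and 1.14 in the Sca1m arrays, with 2 markers, Eomes and Gzma, well above background on each. Of the 5 NK markers 3 had a mean difference above 0, with a median of 0.02, and Klrb1c and Klra8, well above background on 0 naive arrays, lay lower in Sca1p. Platelet markers (4 of 8 measured) summed to between -3.09 and -2.79 in Sca1p, against -2.67 to -1.88 in Sca1m, and 4 of 4 had a negative mean difference, Sca1p minus Sca1m. Of the 4, only 1 was well above background in Sca1p AID KO and 0 in Sca1p uMT, against 2 in Sca1m AID KO and 3 in Sca1m uMT. These signs therefore rest largely on dim signal. Gamma delta T cell markers (5 of 15 measured), the cells Cd163l1 is best known from, summed to between -0.27 and 0.07 in Sca1p, against -0.31 to -0.09 in Sca1m, with 2 well above background on each naive array. CD4 T cell markers (6 of 7 measured) summed to between 2.03 and 2.09 in Sca1p, against 1.74 to 1.80 in Sca1m. Of the 6, 3 had a mean difference above 0, with a median of 0.05. Cxcr5 differed by 1.21 in AID KO and 0.91 in uMT, and Ctla4 by -0.57 and -0.75. B cell markers (7 of 11 measured) summed to 2.91 in Sca1p AID KO, against 2.51 in Sca1m AID KO, and to 2.26 in Sca1p uMT, against 2.40 in Sca1m uMT. Cd79a, a chain of the B cell receptor, was well above background on 1 naive array, that of Sca1p AID KO. Neutrophil markers (2 of 6 measured) summed to 6.67 in Sca1p AID KO and 6.89 in Sca1p uMT, against 6.84 in Sca1m AID KO and 6.69 in Sca1m uMT. That sum rests on the brighter marker, and 1 of the 2 had a mean difference above 0. The dimmer, S100a8, lay lower in Sca1p, at -6.85 in AID KO and -6.94 in uMT, against -4.20 and -4.29 in Sca1m. It was well above background on the 2 Sca1m arrays only, so its difference of -2.65 in both genotypes cannot be read as a size. The part of these cells in the Sca1p and Sca1m differences was not tested.

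In total CD8+ T cells, which were not sorted by Sca-1, all 10 genes were measured, 9 of them well above background on all 8 arrays. Gucy1b1 was well above background on 3. Cd163l1 had levels between 1.09 and 2.16 there, against -6.99 to -3.87 on the naive arrays. On the 4 naive arrays 7 genes, namely Pdgfb, Cd163l1, Tmem37, Chst11, Prss12, Snrpn and Maged1, lay below all 4 total-cell PLN arrays, as 15.6% of all features did. Naive and total cells were on different slides, and cells and slide cannot be told apart.

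The AID KO and uMT total-cell arrays were set against WT to ask how the same genes stand where a genotype, not a sort, differs. Genes chosen for alike differences in both naive genotypes have a small residual in the shared fit, with a median residual SD of 0.108 for the 10 genes, against 0.161 over all features, so their p-values lean low throughout and are not support. For AID KO against WT 0 of the 10 genes passed the test, with 230 features called, or 0.894%, and 4 had an unadjusted p below 0.05, as 14.4% of all features did. Plxnd1 came nearest. Its log2 level was -3.71 in AID KO MLN and -3.38 in AID KO PLN, against -4.22, -4.10, -3.81 and -3.77 on the WT arrays. Both AID KO arrays lay above all WT arrays, by 0.43 ± 0.08 (SE, limma adjusted p = 0.0848). The second, dimmer Plxnd1 probe did not show this, at -4.48 in AID KO MLN and -4.96 in AID KO PLN. Its WT values, in the same order, were -4.83, -4.58, -4.81 and -4.37. Neither AID KO PLN nor WT MLN replicate 1 was well above background for that probe.

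Snrpn also did not overlap, with -2.32 in AID KO MLN and -2.23 in AID KO PLN. The WT arrays gave -2.15 and -2.14 in MLN and -1.95 and -2.13 in PLN. The difference was -0.18 ± 0.12 (adjusted p = 0.573). On a second, dimmer Snrpn probe the AID KO arrays, at -4.15 in MLN and -4.29 in PLN, lay within the WT range (-4.71 to -2.75). Non-overlapping groups were seen for 2 of the 10 genes and for 17.5% of all features. All 5 genes with less signal in Sca1p had differences above 0 in AID KO, from 0.16 for Maged1 to 0.43 for Plxnd1, and the 5 with more signal in Sca1p had differences below 0, from -0.12 for Cd163l1 to -0.27 for Chst11. Over all features 51.9% of the differences were above 0. Ly6a itself differed by 0.86 ± 0.27 (adjusted p = 0.232). None of these passed the test, and the split was not seen in uMT, as given below. Set against its slide's WT array for that node, 9 of the 10 kept their sign in both nodes and Cd163l1 did not, at -0.45 in PLN and 0.25 in MLN. The split counts Gucy1b1 (0.27), which was well above background on 1 of 2 AID KO and 1 of 4 WT arrays. A second, dimmer Maged1 probe ran the other way, at -5.67 in AID KO PLN, against -4.87 on its WT array. In MLN that probe read -6.69 in AID KO, against -6.54. Of these only the WT PLN array was well above background.

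For uMT against WT, which share these WT arrays with AID KO, 0 of the 10 genes passed the test, with 9 features called, or 0.035%, and 3 had an unadjusted p below 0.05, as 17.8% of all features did. Differences were above 0 for 7 of the 10 genes and for 49.4% of all features. These 7 were 3 of the 5 genes with more signal in Sca1p and 4 of the 5 with less, so no split by Sca-1 sign appeared. Adjusted p-values lay between 0.236 for Plxnd1 (0.24 ± 0.08) and 0.713 for Maged1 (-0.08 ± 0.11). Ly6a differed by 1.16 ± 0.27 (adjusted p = 0.153). Snrpn stood at -2.32 in uMT MLN and -2.44 in uMT PLN, against the WT values above, and was the 1 gene of the 10 whose groups did not overlap, at -0.29 ± 0.12 (adjusted p = 0.28), where 19% of all features did not. Both uMT arrays were below their WT array for Snrpn and Cd163l1, and above it for the other 8 genes except Maged1. Maged1 was above it in PLN by 0.10 and below it in MLN by -0.29. For Snrpn this is the reading of its brightest probe. A second, dimmer Snrpn probe read -4.45 in uMT PLN, against -4.71 on its WT array, which was not well above background. In MLN that probe read -2.02 in uMT, against -2.75, so both uMT arrays lay above their WT array.

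**Figure D3:**
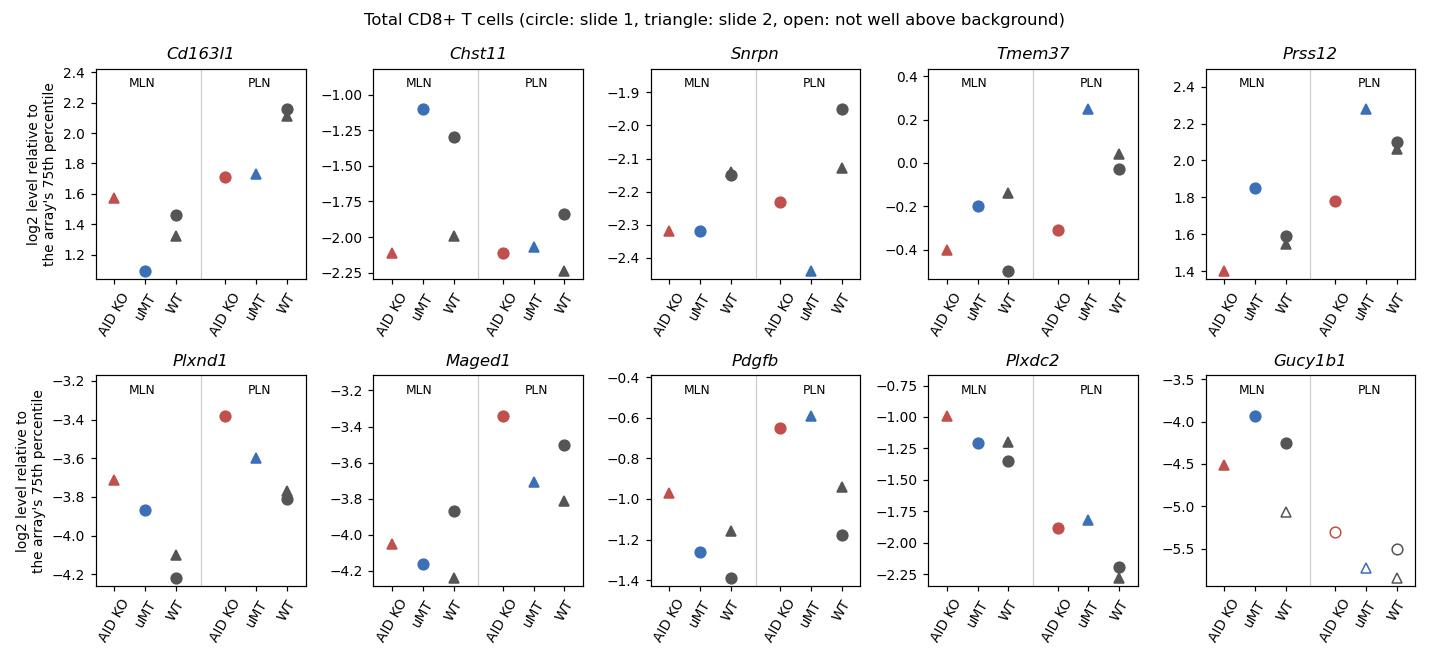
Each panel shows 1 gene in total CD8+ T cells, with the log2 level relative to the array's 75th percentile on the y axis and the genotypes of MLN and then PLN on the x axis. Circles are arrays of slide 1, triangles of slide 2, and open points were not well above background. Plxdc2 and Gucy1b1 sit higher in MLN, and Cd163l1 and Maged1 sit lower.

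For MLN against PLN 4 of the 10 genes, Plxdc2, Gucy1b1, Cd163l1 and Maged1, had groups of 4 arrays that did not overlap, against 2.16% of all features, yet 0 passed the test, with 27 features called, or 0.105%. Gucy1b1 passed the filter on dim probes through 3 MLN arrays alone, so its order between the sites was fixed in part by the filter and is given as a description. The count of 4 includes it and is therefore not read as support. It had -4.51, -3.93, -4.25 and -5.07 in AID KO, uMT and both WT MLN arrays, against -5.30, -5.73, -5.50 and -5.85 in the PLN arrays in the same order. No PLN array and 3 MLN arrays were well above background. The WT MLN array at -5.07 was not, so no fold is given.

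Plxdc2 had -0.99, -1.21, -1.35 and -1.20 in AID KO, uMT and both WT MLN arrays, against -1.88, -1.82, -2.19 and -2.28 in the PLN arrays. All MLN values lay above all PLN values, by 0.86 ± 0.09 (1.81-fold, adjusted p = 0.0532), and on both slides for WT, by 0.83 on slide 1 and 1.09 on slide 2. Its adjusted p was below the threshold in 3 alternatives, with another background correction (0.00666), the authors' deposited normalized values (0.0303) or a stricter filter (0.0328). It was not with averaged probes (0.0558), no slide term (0.0629), quantile normalization (0.0814), total-cell arrays only (0.117) or no filter (0.177), nor with any single array left out (0.117 to 0.329). Cd163l1 averaged 1.36 ± 0.20 in MLN and 1.93 ± 0.24 in PLN (SD, n = 4 each), a difference of -0.57 ± 0.12 (adjusted p = 0.247), and Maged1 averaged -4.08 ± 0.16 in MLN and -3.59 ± 0.21 in PLN, a difference of -0.49 ± 0.09 (adjusted p = 0.178).

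The other 6 genes gave smaller or overlapping differences between the sites: -0.46 ± 0.07 for Prss12 (adjusted p = 0.14), 0.44 ± 0.11 for Chst11, -0.36 ± 0.09 for Pdgfb, -0.33 ± 0.07 for Plxnd1, -0.30 ± 0.09 for Tmem37 and -0.05 ± 0.10 for Snrpn. A second, dimmer Snrpn probe lay higher in MLN, at -4.15, -2.02, -2.75 and -3.87 in AID KO, uMT and both WT arrays. Its PLN values, in the same order, were -4.29, -4.45, -4.26 and -4.71, the last not well above background. The groups of this probe did not overlap, so the Snrpn probes disagree on site. The second probe was not tested on its own. An unadjusted p below 0.05 was reached by 9 of the 10 genes and by 9.13% of all features. That count carries the limit on residuals given above, and includes Gucy1b1. Among listed genes Sema7a, a membrane-anchored semaphorin, was higher in MLN by 1.17 ± 0.07 (adjusted p = 0.00548). Erythroid markers (Hba-a1 and Hbb-bt, 2 of 6 measured) moved with the site, at summed levels from 0.15 to 2.29 in MLN, against -3.58 to -0.44 in PLN, and their part in the site differences was not tested.

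**Figure D4:**
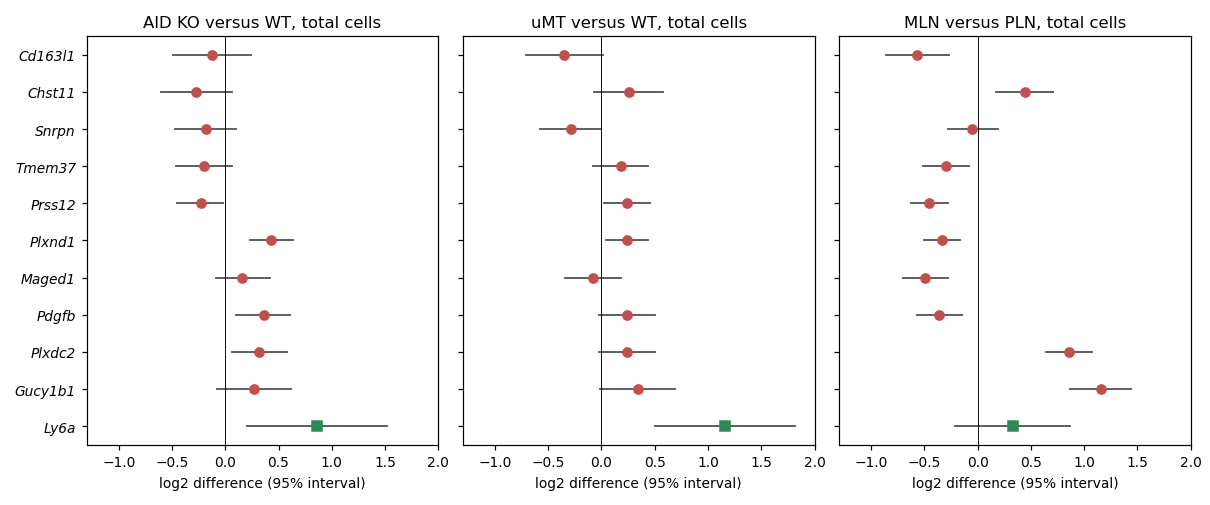
Points are fitted log2 differences of the 10 genes (red) and Ly6a (green square) in total CD8+ T cells, with AID KO minus WT, uMT minus WT and MLN minus PLN in the panels from left to right and lines for 95% intervals of the fit. Plxdc2 stands at 0.86 in MLN against PLN, Gucy1b1 is drawn there at its fitted value although no PLN array was well above background, and none of the 10 passed the adjusted threshold in any panel.

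Whether the genotypes shifted the site difference was tested as an interaction of both knockouts with site. For these 10 genes 0 passed, all with an adjusted p of 0.999, and 0 had an unadjusted p below 0.05. Over all features 0 were called (0%), and 1103, or 4.29%, had an unadjusted p below 0.05.

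Between the knockouts, uMT against AID KO in naive cells gave 0 of the 10 genes past the test and 90 features called, or 0.35%. Maged1 had the lowest adjusted p, 0.101 (limma), with -5.03 in Sca1p uMT and -3.94 in Sca1m uMT cells, against -5.87 in Sca1p AID KO and -4.63 in Sca1m AID KO cells. Of these only Sca1m uMT was well above background, so the Sca1p pair is an order within background and no size is given. The other 9 genes differed by between -0.41 (Cd163l1) and 0.32 (Plxdc2), with adjusted p-values from 0.526 to 1, and 2 of the 10 had an unadjusted p below 0.05, as 8.91% of all features did. In total cells, uMT against AID KO gave 0 of the 10 past the test and 81 features called, or 0.315%. Prss12, Chst11 and Tmem37 had groups that did not overlap, with both uMT arrays above both AID KO arrays, as was so in either direction for 28.9% of all features. These 3 were also the genes with an unadjusted p below 0.05, which 12.3% of all features had.

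Ly6a varied in total cells as well, from 1.46 in a WT MLN array to 3.53 in uMT MLN, so the 10 genes were set against it over the 8 total-cell arrays. Gucy1b1 had the highest Pearson r, 0.588 (exact p = 0.121, 0.52 adjusted over all features; Spearman rho 0.429, exact p = 0.299), and Snrpn the lowest, -0.556 (exact p = 0.156, 0.562 adjusted; rho -0.667, exact p = 0.0831). Of the 10 relations 0 had a two-sided exact permutation p below 0.05, against 12.5% of all features. Without the uMT MLN and AID KO MLN arrays, which lie farthest from the Ly6a median, r was -0.208 for Gucy1b1 and -0.467 for Snrpn, and the 3 highest were 0.855 for Maged1, 0.816 for Plxnd1 and 0.71 for Pdgfb, which had -0.156, 0.337 and 0.0319 over all 8 arrays. The order of the genes by r thus rests on those arrays. With site and slide removed, Gucy1b1 (r = 0.885), Plxnd1 (0.78) and Snrpn (-0.739) had an exact p below 0.05, or 3 of 10, against 29.8% of all features.

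The named genes whose levels followed Ly6a most closely over these arrays were Dennd10 (r = 0.985), Fastk (0.983), Cdc42se1 (0.976), Traf3ip3 (0.974) and Gm12250 (0.974). They differed little between the naive fractions, by -0.05 and -0.04 for Dennd10 and by 0.09 and -0.07 for Fastk in AID KO and uMT, with the largest value, 0.58, for Gm12250 in AID KO. These genes were ranked by this measure, and the correlations are descriptions.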

How the data were processed

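The data are 12 deposited scanner files of 1-colour arrays. Per the file headers, the deposited intensity of each spot was extracted, background-subtracted and detrended with the software Agilent Feature Extraction 11.0.1.1; the same version stands in the submitters' processing notes. Flags of 0 or 1 (spots well above background, saturated or outlying) are other deposited values. The deposited series matrix holds log2 values and was used as an alternative; its scale and centring are not stated.

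Processed intensities were taken as log2 minus each array's 75th percentile. Outlier spots were dropped and no spot was saturated. Probes were named by transcript accession with RefSeq's GRCm38.p6 gene table, which gave 1 symbol to 32994 and none to 23611 of 56605 probes. Probes well above background on at least 2 of 12 arrays were kept, and the brightest stood for its gene. One limma 3.58.1 fit in R 4.3.3 over all arrays had, for total cells, terms for uMT, AID KO, slide and site, and for naive cells an intercept, Sca1p and uMT, which left 4 residual degrees of freedom (3 with the interaction). Two-sided p-values were adjusted over all features (Benjamini-Hochberg) and called below 0.05. Values after ± are SE unless SD is named. The number of arrays limits the precision.

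The files hold no mean signal column, so normexp (offset 50) used the median signals. Correlations with Ly6a used exact permutation over 40320 orders, with p adjusted over all features and not over the 10 genes as first planned. The members, lists and motifs were chosen with earlier results of these data known, and uMT against AID KO in total cells was added after the values were seen. The rule for named genes takes the 10 genes, Ly6a, the 5 genes most like it, the 2 on each side of the threshold and up to 3 genes of a list. Named outside it, after their values were seen, were Hba-a1 and Hbb-bt. A further gene is not reported here. The fit was tested on simulated data. For PLN the labels name WT replicate 1 as the control for AID KO and WT replicate 2 as the control for uMT. For MLN no pairing is stated. The main fit pooled the WT arrays, with a slide term. As an alternative, a block joined each knockout array to the WT array hybridised beside it on the slide for that site, which for PLN is the stated control. With this block 15 features were called for AID KO against WT, in place of 230.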

Additional observations from a re-analysis of the deposited data

Results flagged for a closer look

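In total cells 3 genes moved in opposite directions from WT in the knockouts, with both uMT arrays above and both AID KO arrays below the WT array of their site and slide. All 3 have more signal in Sca1p than in Sca1m naive cells. Prss12 was 0.22 above WT in uMT PLN and 0.26 in uMT MLN, against -0.32 in AID KO PLN and -0.15 in AID KO MLN, and the test of the difference, uMT minus AID KO, gave 0.48 ± 0.10 (limma, adjusted p = 0.171). Chst11 gave 0.52 ± 0.15 (adjusted p = 0.276) and Tmem37 0.37 ± 0.12 (adjusted p = 0.319). None of the 3 passed the threshold, which 81 features, or 0.315%, did, and groups without overlap were seen for 28.9% of all features. The WT arrays are shared by both knockouts, and WT replicates of 1 site themselves differed by -0.40 in PLN and -0.69 in MLN for Chst11 (replicate 2 minus replicate 1).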

How the results depend on the processing

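For MLN against PLN the count of genes past the threshold was 1 in place of 0 with normexp (Plxdc2, 0.70, adjusted p = 0.00666), with the series matrix (Plxdc2, 0.86, 0.0303), with probes well above background on at least 6 arrays (Plxdc2, 0.86, 0.0328) and with quantile normalization (Gucy1b1, dim in PLN, 0.0492). Counts for AID KO, uMT, their difference in naive and in total cells, and the interaction with site stayed at 0 under every alternative run. In naive cells 10 of 10 genes kept 1 sign in both genotypes with quantile normalization or no filter, 9 with averaged probes, 9 with normexp and 9 of the 9 kept by the stricter filter; in the series matrix 4 did, the others having blank values there. Normexp brought the sizes down, to 0.66 for Cd163l1 and -0.17 for Gucy1b1, and averaging probes brought Plxnd1 to -0.14. Relations with Ly6a below an exact p of 0.05 numbered 3 after site and slide, and 0 to 1 when single arrays were left out (1 without WT MLN replicate 1 or replicate 2). With the replicate block of each knockout array and its WT array, 0 genes passed for AID KO, uMT and the interaction. Over all features the calls were 230 for AID KO (15 to 468 under other settings, 1 to 163 leaving out an array), 9 for uMT (0 to 66, 0 to 9), 27 for site (16 to 61, 2 to 24), 4 for Sca-1 (0 to 18, 0 to 173), 90 for naive uMT against AID KO (0 to 119, 25 to 213), 81 for that contrast in total cells (1 to 167, 1 to 37) and 0 for the interaction (0 to 23, 0 to 0). Single knockout arrays left out assume a lone array that varies like the rest. Weak signal limits Gucy1b1, Maged1, Cd163l1 and Chst11 in naive cells.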

Other observations

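In AID KO against WT total cells, listed genes other than the 10 passed the test (limma, adjusted over all features). Bhlhe40, a transcription factor of effector cells, was lower, by -1.56 log2 units (adjusted p = 0.00743), and Ifng, interferon gamma, fell by 1.47 (0.0257), while Klrk1, the receptor NKG2D, rose by 2.09 (0.0324), out of 22 genes on the virtual memory and effector list. Cd27, a costimulatory receptor, rose by 0.88 (0.0301), 1 of 17 on the naive and quiescence list. Cdkn1c, an imprinted inhibitor of the cell cycle, fell by 0.94 (0.0481), and Maf, on the gamma delta list, fell by 0.87 (0.0402). In total cells, uMT against AID KO, Bhlhe40 rose by 1.76 (0.0134). Klrk1 was also called in naive cells, lower in uMT than in AID KO (adjusted p = 0.00615). It stood at -0.54 in Sca1p AID KO and -2.72 in Sca1m AID KO, against -5.97 in Sca1p uMT and -6.97 in Sca1m uMT. It was well above background on 2 naive arrays, so no size is given.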
